A study of Mus musculus with 84 samples.

Results

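Adipocyte H3K4me3 at promoters was compared between mice kept on a high-fat diet for 25 weeks (HH) and age-matched chow-fed mice (CC_l), both 31 weeks old. Members were the 4 H3K4me3 libraries whose titles carry these groups, HH replicates 2 and 3 and CC_l replicates 1 and 2, out of 84 libraries in all. A promoter was the region 2000 bp to either side of a transcription start site of a protein-coding gene (GENCODE, GRCm38), and a library marked it if any deposited peak shared 1 bp or more with it. Of 21851 promoters, 288 had a peak in both HH and in neither CC_l library and are called gained, and 105 had the reverse and are called lost. Because groups were taken from titles, the treatment field matters: it disagrees for 3 of the 4 libraries, giving CC_l replicate 2 as HH, HH replicate 2 as CCC (chow-fed to 39 weeks) and HH replicate 3 as CC_l. It also disagrees for CCC replicate 3, a control library used below, which it gives as HH. The names of the deposited peak lists carry the diet that the titles give.

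All groups shared the genotype AdipoERCre x NuTRAP on what the labels write as a C576BL6 background. The study used male mice, and tamoxifen, given before the diets, switched on a Cre recombinase driven by the adiponectin gene, so that adipocyte nuclei were tagged with biotin and pulled down from frozen epididymal fat, from 1 depot per sample. CUT&Tag was then run, in which an antibody guides a transposase to cut and tag DNA around the mark. Other groups used below are H3K4me3 libraries of mice after 12 weeks of high-fat diet (H) with their 18-week-old controls (C), and of mice returned to chow for 8 weeks after 12 or 25 weeks of that diet (HC and HHC) with controls 26 and 39 weeks old (CC_s and CCC). The series addresses which chromatin changes of obesity exist in adipocytes and which outlast weight loss.

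H3K4me3 is the trimethylation of lysine 4 on histone H3, laid down by COMPASS-type methyltransferases around the start sites of active and poised genes. CpG-rich promoters carry it in most cell types, while CpG-poor promoters of tissue-restricted genes usually gain it only where the gene is used. In obesity, epididymal fat is known for large numbers of macrophages around its adipocytes and for reduced adipocyte expression of lipid and hormone genes.

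The 4 libraries held 32225 to 36664 peaks and marked 13719 to 13931 promoters. A total of 12695 promoters were marked in all 4 libraries and 6792 in none, and 271 were marked in exactly 1 HH and 1 CC_l library. Replicate spread was large: the CC_l libraries disagreed at 1446 promoters and the HH libraries at 796, while pairs across the diets disagreed at 1098 to 1616. CC_l replicate 1 had the fewest peaks and the narrowest, with a median width of 1185 bp against up to 1758 bp in the others. For the adipocyte label, all 18 adipocyte markers, among them Adipoq, Plin1 and Lep, were marked in all 4 libraries. Peak lists do not give read depth, and a promoter without a peak is only one that stayed below the peak threshold of that library. Levels below are the summed coverage of peaks inside the promoter window, scaled between libraries, as a percentage of the median promoter marked in all 4. On this scale the smallest whole peak listed was 6.39% to 10.3% of the median promoter, and a peak that only partly overlaps a window gives less.

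The strongest gained promoters included several of genes that leukocytes use. Lrrc25, a leukocyte membrane protein, headed them (strongest peak in HH replicate 2 at chr8:70614303-70619636, across the start site). Its coverage was 77.3% of the median promoter in HH replicate 2 and 44.7% in HH replicate 3, with no peak in either CC_l library. Fgd3, a guanine nucleotide exchange factor of Cdc42 (chr13:49306547-49309707), stood at 70.4% and 47.8%. Ubd, which encodes the interferon- and TNF-induced ubiquitin-like modifier FAT10, stood at 62.0% and 38.9%, and Glipr1 at 58.4% and 42.1%. Cyth4, a cytohesin of haematopoietic cells, stood at 46.9% and 42.6%. Tnf, the inflammatory cytokine (chr17:35199478-35202207), stood at 48.1% and 38.6%, and its window overlaps that of Lta. Lif, a cytokine of the interleukin-6 family, stood at 47.7% and 38.3%. Every one of the 12 strongest gained promoters lay below the median promoter in both HH libraries, and HH replicate 2 was the higher in each.

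The strongest losses came from unlike genes. Dnah3, an axonemal dynein (chr7:120093838-120095427), stood at 26.2% in CC_l replicate 1 and 46.4% in CC_l replicate 2, with no peak in either HH library. Slc1a2, a glutamate transporter best known from astrocytes (chr2:102659046-102660041), stood at 33.9% and 22.1%. Lrtm1 stood at 40.5% and 17.9%, and Cmtm2a at 45.5% and 16.8%. The top entry, 4930467E23Rik, rested on CC_l replicate 1 at 109% against 4.54% in CC_l replicate 2. For Rgs3 among the gained and for Nol4 and Erich3 among the lost, the strongest peaks of the 2 libraries lay at different places of the gene, as they did for 33 gained and 21 lost promoters in all.

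**Figure D1:**
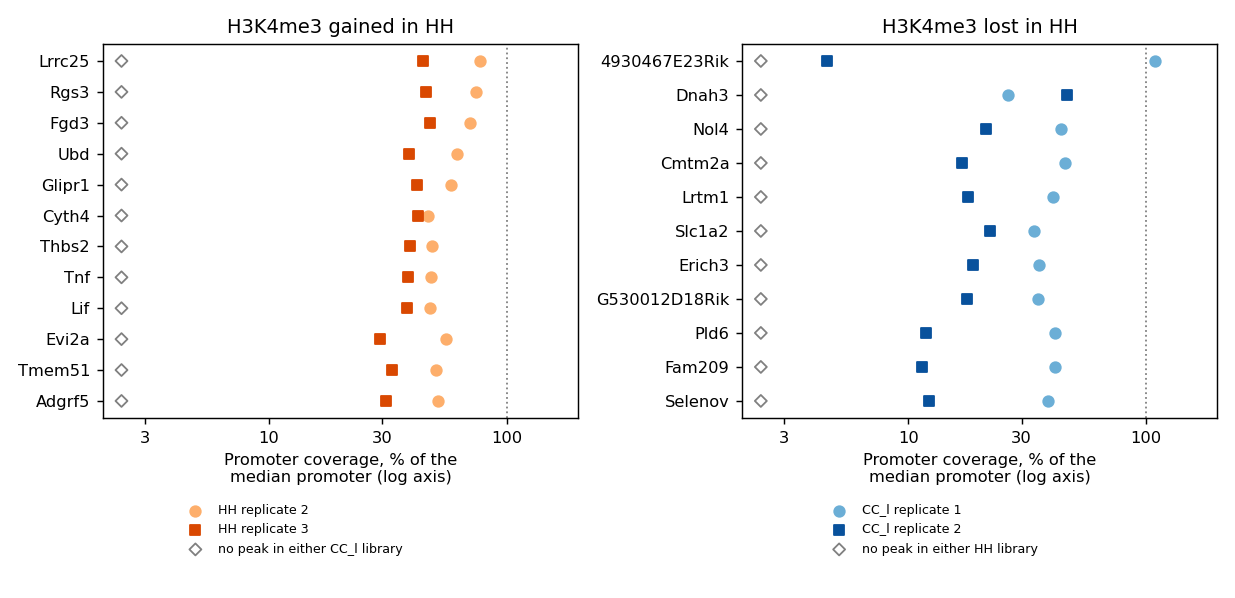
Promoter coverage of the 12 strongest gained (left) and 11 of the 12 strongest lost promoters (right), as a percentage of the median promoter on a log axis, 1 coloured point for each library with a peak. Grey diamonds, placed at the left edge, stand for the other diet group, where neither library had a peak. All 12 gained promoters lie left of the dotted line at 100%, and among the lost only 4930467E23Rik in CC_l replicate 1 lies right of it.

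Promoter sequences are shown for gained, lost and lowered genes because the groups differ in CpG content, which the selection did not use. They are from RefSeq on GRCm38.p6, 250 bases before to 50 after the start, written 5′ to 3′ along the gene, with capitals at every CpG. The first pair, Fgd3 at chr13:49309159-49309458 (minus strand) and Ubd at chr17:37193642-37193941 (plus), gained the mark:
Fgd3: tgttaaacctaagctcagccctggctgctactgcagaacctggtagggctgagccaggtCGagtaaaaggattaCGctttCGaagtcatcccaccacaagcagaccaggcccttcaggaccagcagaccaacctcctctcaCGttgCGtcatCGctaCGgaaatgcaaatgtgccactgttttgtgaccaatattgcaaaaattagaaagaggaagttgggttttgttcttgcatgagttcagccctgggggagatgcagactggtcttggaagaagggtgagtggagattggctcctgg
Ubd: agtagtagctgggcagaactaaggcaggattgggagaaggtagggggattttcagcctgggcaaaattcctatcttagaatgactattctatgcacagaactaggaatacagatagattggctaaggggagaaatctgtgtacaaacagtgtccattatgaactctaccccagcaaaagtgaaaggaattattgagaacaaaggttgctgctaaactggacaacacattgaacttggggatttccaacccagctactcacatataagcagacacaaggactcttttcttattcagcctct
Ptprc at chr1:138175077-138175376 (minus), which encodes the leukocyte antigen CD45, and Ctss at chr3:95526536-95526835 (plus), which encodes the lysosomal protease cathepsin S of antigen-presenting cells, are the macrophage markers that gained it most:
Ptprc: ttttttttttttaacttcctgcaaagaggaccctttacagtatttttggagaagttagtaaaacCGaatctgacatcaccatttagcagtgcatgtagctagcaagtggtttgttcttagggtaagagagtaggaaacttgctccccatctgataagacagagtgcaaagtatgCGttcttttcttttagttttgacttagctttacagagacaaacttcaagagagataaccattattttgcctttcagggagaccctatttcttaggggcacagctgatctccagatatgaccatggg
Ctss: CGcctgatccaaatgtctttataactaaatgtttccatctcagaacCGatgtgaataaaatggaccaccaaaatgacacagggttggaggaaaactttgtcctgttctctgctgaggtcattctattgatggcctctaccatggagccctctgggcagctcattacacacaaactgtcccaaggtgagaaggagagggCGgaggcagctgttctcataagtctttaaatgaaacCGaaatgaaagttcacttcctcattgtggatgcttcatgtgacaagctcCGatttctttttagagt
Cmtm2a at chr8:104293132-104293431 (minus) lost it:
Cmtm2a: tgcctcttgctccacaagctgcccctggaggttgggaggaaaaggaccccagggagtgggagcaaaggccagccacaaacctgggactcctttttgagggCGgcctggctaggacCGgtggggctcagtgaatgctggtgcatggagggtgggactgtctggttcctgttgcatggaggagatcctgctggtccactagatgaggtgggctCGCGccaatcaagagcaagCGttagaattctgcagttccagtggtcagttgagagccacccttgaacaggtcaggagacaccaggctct
Cfd at chr10:79890603-79890902 (plus) and Retn at chr8:3655520-3655819 (plus), the genes of the adipocyte hormones adipsin and resistin, kept it at lower coverage:
Cfd: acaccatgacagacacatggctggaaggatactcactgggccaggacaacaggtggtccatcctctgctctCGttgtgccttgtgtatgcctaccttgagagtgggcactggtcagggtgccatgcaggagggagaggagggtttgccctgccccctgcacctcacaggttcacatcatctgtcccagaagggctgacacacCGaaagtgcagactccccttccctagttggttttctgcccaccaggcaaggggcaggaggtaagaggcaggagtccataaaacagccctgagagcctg
Retn: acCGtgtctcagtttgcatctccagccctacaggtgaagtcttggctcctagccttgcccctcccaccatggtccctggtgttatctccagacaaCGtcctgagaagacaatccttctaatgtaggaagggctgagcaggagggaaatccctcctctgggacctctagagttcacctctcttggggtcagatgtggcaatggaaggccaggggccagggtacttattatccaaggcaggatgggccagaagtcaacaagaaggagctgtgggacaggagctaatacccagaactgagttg
These windows held 7 CpG in Fgd3, 0 in Ubd, 2 in Ptprc, 5 in Ctss, 5 in Cmtm2a, 2 in Cfd and 2 in Retn, against a median of 20 for promoters marked in all 4 libraries. Cfd and Retn do not stand for the lowered promoters as a set. The 79 of these described below had a median of 16 CpG, beside 13 over all promoters.

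Over all gained promoters the ratio of observed to expected CpG had a median of 0.27, and over lost promoters it was 0.47. Promoters marked in all 4 libraries had a median of 0.73, and those marked in none 0.17. The 79 lowered promoters described below had 0.59, beside 0.55 over all promoters. Among the 1971 promoters marked in 1 to 3 libraries that were neither gained nor lost, which are also weak, the median was 0.40. Gained promoters were thus the poorest in CpG of the marked sets. The 63 of them in the immune lists below stood at 0.23 and the other 225 at 0.28. The letters GAGGAAGT, on either strand, a site of the ETS factor PU.1 of myeloid and B cells, were in 13.9% of gained and 3.81% of lost promoters, and in 4.22% of all 21847 promoters with sequence. They are present in the Fgd3 and Ctss windows printed above and absent from those of Ptprc and Ubd. TTGCNNAA, the pattern of C/EBP factors, was in 17.7% of gained and 14.3% of all promoters, and TATAAA in 17.7% and 17.4%. These shares describe letters, not binding, and PU.1, C/EBP and the other factors were not measured.

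By function, 63 of 412 genes in 18 immune lists, joined after their values had been seen, gained the mark and 0 lost it, which is 15.3% beside the 1.32% gained and 0.481% lost over all promoters. These made up 21.9% of all gained promoters. Of 18 macrophage markers 6 gained it. Csf1r, the receptor that macrophages need for growth, stood at 28.5% of the median promoter in HH replicate 2 and 17% in HH replicate 3. Adgre1, which encodes F4/80, stood at 32.8% and 8.71%, and Lyz2, the macrophage lysozyme, at 29.8% and 6.56%. Ptprc stood at 32.6% and 32%, Ctss at 21.8% and 37.3%, and the high-affinity IgG receptor Fcgr1 at 26.0% and 12.1%. None of the 6 had a peak in a CC_l library. Csf1r also gained H3K27ac, as given below. Of 11 markers of lipid-associated macrophages 3 gained it, Trem2, Gpnmb and Cd84, at 20.6% to 36.8% in HH replicate 2 and 18.8% to 19.3% in HH replicate 3.

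Receptors and their adaptors were well represented. The mark was gained at 6 of 20 Fc receptors and related adaptors (Cd300a, Cd300lb, Fcgr1, Fcgr4, Pirb and Trem2) and at 4 of 14 C-type lectins (Clec12a, Clec4a1, Clec4a3 and Mgl2). It was gained at 4 of 22 genes of toll-like receptor signalling, all of them receptors (Tlr1, Tlr7, Tlr8 and Tlr12), where Tlr7 and Tlr8 sense RNA inside endosomes. It was gained at 6 of 49 cytokine receptors, among them Csf3r, the receptor of granulocyte growth factor, and Il2rg, the chain shared by several interleukin receptors. At chemokine receptors 1 of 23 gained it, which is 4.35% beside 1.32% over all promoters. Inflammasome and nucleic acid sensing genes had 0 of 16, but 9 of these were marked in all 4 libraries and could not gain it. A list this short cannot show a share below 1.32%.

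Secreted factors gained the mark as well. They were 5 of 40 cytokines (Lif, Osm, Tnf, Tnfsf8 and Tnfsf9), 3 of 33 chemokines (Ccl3, Ccl9 and Pf4) and 5 of 18 complement genes. C1qa and C1qb, chains of the first complement component that tissue macrophages make, stood at 34.1% and 49.4% in HH replicate 2 and at 15.3% and 16.4% in HH replicate 3. The complement receptors C3ar1 and C5ar2 and the stabiliser Cfp were the rest. For antigen presentation the mark was gained at 4 of 19 genes, H2-Aa, H2-Ob, Ctss and Cd40. H2-Aa, the alpha chain of a class II molecule, stood at 39.1% and 23.6%, and Cd40, the co-stimulatory receptor, at 47.5% and 30.1%. Of 28 interferon-induced genes 4 gained it (Oas2, Oas3, Ifi44 and Ifi205), at 8.5% to 11.6% in HH replicate 3.

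Inside the cell, 6 of 48 haematopoietic signalling genes gained the mark. Among these Cyth4, Rasal3, Sash3, Arhgap15 and the actin regulator Was stood at 20.7% to 46.9% in HH replicate 2 and 10.2% to 42.6% in HH replicate 3. The same share, 3 of 24, was gained among haematopoietic transcription factors (Runx3, Spib and Pax5), and 16 of the 24 were marked in all 4 libraries. Pax5, the B cell factor, stood at 0.23% in HH replicate 2 and 23.6% in HH replicate 3, with strongest peaks that did not overlap. Markers of lymphocytes gained it at 3 of 16 genes, Cd2 and the B cell receptor chains Cd79a and Cd79b.

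Blood vessel genes were a further group. The mark was gained at 4 of 14 endothelial markers, the angiopoietin co-receptor Tie1, the phosphatase Ptprb, the sialomucin Emcn and Adgrl4, at 26.1% to 31.7% in HH replicate 2 and 15.2% to 21.2% in HH replicate 3. Gpihbp1, which carries lipoprotein lipase across capillary walls, stood at 47.7% and 31.3%. None of 12 stromal progenitor and none of 8 mural cell markers gained it, but 7 and 4 of these were marked in all 4 libraries and could not. Of those, Col1a1 (stromal progenitor) and Acta2 (mural) were called higher in the test of level below.

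Of 152 genes in 8 adipocyte and metabolic lists 2 gained the mark (Gpihbp1 and Fgf21) and 1 lost it (Zic1). The gained share, 1.32%, equals that over all promoters, but the 2 shares are not alike. Of the 152 genes 135 were marked in all 4 libraries and could not gain the mark, against 12695 of all 21851 promoters. Fgf21, a fasting and stress hormone, stood at 17.9% and 20.3%, in a window that overlaps that of Fut1. All 21 adipogenic transcription factors and all 18 adipocyte markers were marked in every library, so any change there could only be one of level.

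**Figure D2:**
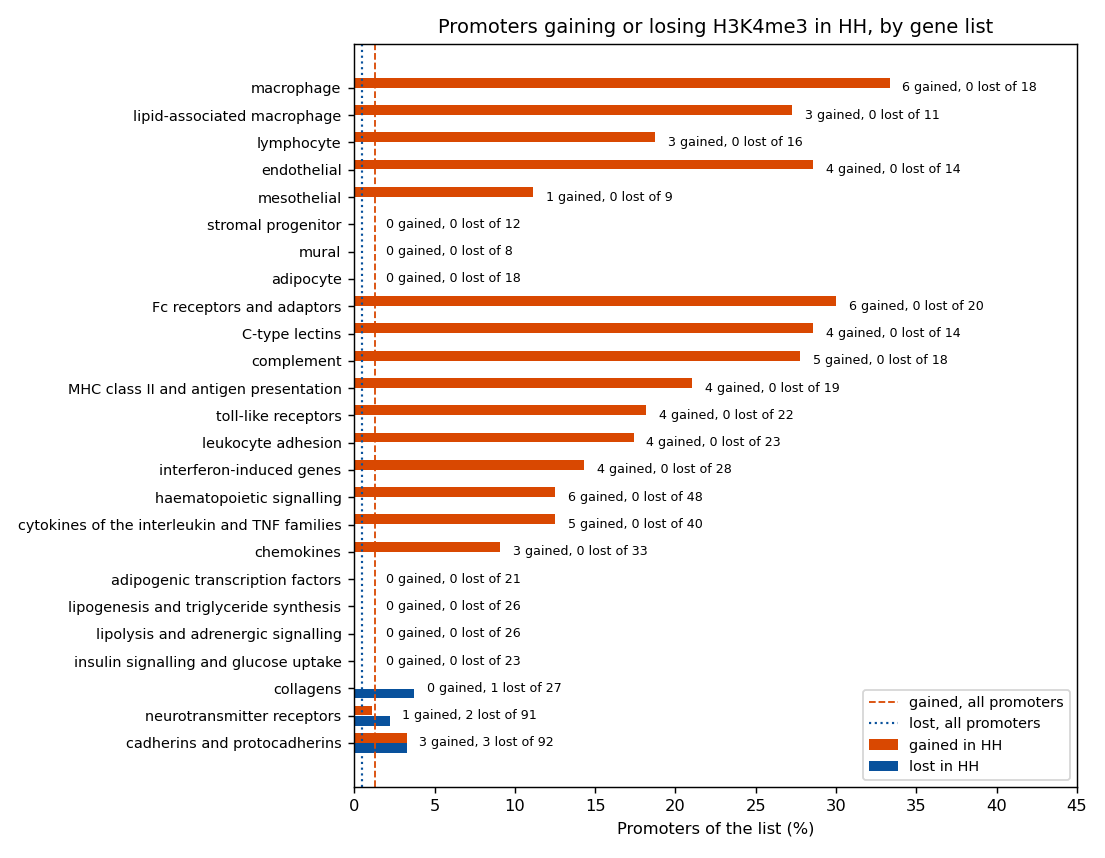
Share of the promoters of each gene list (x axis, %) that gained (orange) or lost (blue) H3K4me3 in HH, with the counts written beside the bars. The dashed and dotted lines give the shares over all promoters, 1.32% and 0.481%. The plotted immune and endothelial lists extend to 33.3% gained for macrophage markers. The plotted lists of adipocyte markers, adipogenic factors, lipogenesis, lipolysis and insulin signalling are at 0. In these lists 18 of 18, 21 of 21, 24 of 26, 25 of 26 and 22 of 23 promoters were marked in all 4 libraries. Such promoters could be neither gained nor lost, and among macrophage markers they were 6 of 18. Chemokine receptors (1 of 23 gained) and inflammasome and nucleic acid sensing (0 of 16) are among the immune lists not plotted.

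Several marker lists of other cells were higher as whole lists in HH, and nuclei of such cells in the pull-down and mark on adipocyte chromatin cannot be told apart in bulk libraries, nor can more cells of a type and more mark per cell. Macrophage markers were marked at 7 and 7 of 18 genes in the CC_l and 15 and 15 in the HH libraries, and their summed coverage was 386% and 450% against 808% and 593% of the median promoter. Endothelial markers were marked at 9 and 5 of 14 against 13 and 13, with sums of 287% and 210% against 708% and 620%. Lymphocyte markers were marked at 3 and 1 of 16 against 8 and 5, with sums of 53.0% and 27.1% against 151% and 83.4%. Stromal progenitor markers had sums of 422% and 340% against 670% and 516%. Mural cell markers had sums of 150% and 159% against 251% and 278%. Mesothelial markers (67.9% and 77.3% against 104% and 61%), epithelial markers (80.2% and 54.4% against 52.3% and 69%) and neuron markers (64.8% and 24.1% against 16.9% and 26.1%) overlapped between the diets. Adipocyte markers went the other way, with sums of 4564% and 4005% in CC_l against 3659% and 3114% in HH. These sums include the gained promoters of the same lists, and the part of other cells in the gained promoters was not tested.

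Of the 105 lost promoters 19 were members of any list, and no list had more than 3. Of 92 cadherins and protocadherins 3 lost the mark (Pcdhac1, Pcdhgb2 and Pcdh11x) and 3 others gained it (Cdh1, Cdh6 and Pcdh12). Of 91 neurotransmitter receptors 2 lost it, Drd4 and Gabrg3, at 18.2% and 18.2% in CC_l replicate 1 and 14.2% and 14.3% in CC_l replicate 2, and 1 gained it, the serotonin receptor Htr2a. Among 134 ion channel genes 3 lost it (Kcnd2, Kcne1l and Kcnk10) and 4 gained it. Syt1, the calcium sensor of synaptic vesicles, stood at 23.3% and 6.65%, Hoxb9 at 20.1% and 6.86%, and Zic1, a marker of brown fat precursors in other depots, at 13% and 12.3% in a window that overlaps that of Zic4. Lgr5, a Wnt co-receptor of stem cells, stood at 10.9% and 9.70%, and Col11a1 at 11.7% and 6.65%. Most of these values are near the smallest peak listed.

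As sets, gained and lost promoters were weakly marked. Gained promoters had a median coverage of 17.1% of the median promoter and lost ones 13.8%. The marking peaks had at least 2 times the coverage of the smallest peak listed in either unmarked library for 64 gained promoters (22.2%) and for 4 lost promoters (3.81%, among them Dnah3, Slc1a2 and Fcamr). In the immune lists this held for 14 of 63 gained promoters. H3K27me3 set them apart from strongly marked promoters: 83 of 288 gained and 52 of 105 lost promoters (28.8% and 49.5%) carried H3K27me3, the repressive mark of Polycomb, in all 4 HH and CC_l libraries of that mark, against 8.26% of promoters marked with H3K4me3 in all 4 libraries and 39.2% of the other weakly marked ones.

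Level was tested for the 12695 promoters marked in all 4 libraries with limma, on log2 coverage. Coverage was higher in HH at 164 promoters (1.29%) and lower at 79 (0.622%) at an adjusted p below 0.05, with 1560 below an unadjusted p of 0.05. The counts depend strongly on the setting. They fell to 45 higher and 10 lower with windows of 1000 bp, to 9 and 1 with windows of 500 bp, and to 33 and 17 with the highest coverage in place of the sum. They were 3 and 0 in a fit on all 9 libraries of the 25-week cohort, and 0 and 0 when promoters marked in at least 2 of 4 libraries entered. Leaving out HH replicate 2 left 36 higher and 53 lower. All 243 called promoters kept their sign under quantile normalization, in the wider set of promoters and without any single library, and 230 kept it with the highest coverage. These settings reuse the libraries that chose the 243 promoters, so kept signs were largely set in advance and are no independent support. With groups from the treatment field 22 of 231 kept it and 0 were called.

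Lowered promoters included a set that adipocytes are known for. Agt, the angiotensinogen gene, had 163% and 169% of the median promoter in CC_l replicates 1 and 2 and 9.77% and 42.6% in HH replicates 2 and 3 (log2 difference -3.02, SE 0.43, adjusted p = 0.00177 by limma). Cyp2e1, a cytochrome P450 of fat and liver, had 141% and 107% against 33.9% and 42.9% (-1.69, SE 0.24, adjusted p = 0.00177 by limma). Cfd, which encodes adipsin, had 117% and 113% against 56.4% and 28.9% (-1.51, adjusted p = 0.00812 by limma). Adrb3, the beta-3 adrenergic receptor that drives lipolysis, had 238% and 296% against 138.5% and 161% (-0.83, adjusted p = 0.0101 by limma). Adipoq, the adiponectin gene, had 490% and 376% against 284% and 267% (-0.64, adjusted p = 0.0385 by limma). In each of these the libraries of the groups did not overlap.

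Of the 135 measured promoters of the 8 adipocyte and metabolic lists, 12 were lower and 2 higher (Prdm16 and Ucp2), which is 8.89% and 1.48%, and their median log2 difference was -0.13 against -0.0043 over all 12695. Adipocyte markers had 4 lower of 18 and a median of -0.41, with 3 of 18 above 0. In lipogenesis the lower promoters were Pck1, which makes glycerol backbones for triglycerides, and the acyltransferase Mogat1, 2 of 24 with a median of -0.23. In lipolysis they were Adrb3 and the lactate receptor Hcar1, 2 of 25 with a median of -0.27. In insulin signalling they were the substrate Irs1 and the hexokinase Hk2, 2 of 22 with a median of -0.06. Among adipogenic transcription factors they were Cebpb and the carbohydrate-sensing factor Mlxipl, against Prdm16, which rose from 28% and 21.8% to 120% and 85.9% (log2 difference 2.04, adjusted p = 0.00177 by limma). In the other diets Prdm16 was mixed, with an H3K4me3 peak in 0 of 3 H and 3 of 3 C libraries but in 2 of 3 HC and 0 of 3 CC_s libraries. It carried H3K27me3 in both HH and both CC_l libraries of that mark. Further lowered promoters with the smallest adjusted p were Dennd2d, Alkal2, Hoxa6, Kcnn2 and Smim1, at log2 differences from -1.02 to -1.69. The summed levels of macrophage, endothelial, lymphocyte and stromal markers given above were higher in the HH libraries, where these promoters were lower, and their part was not tested. Fatty acid uptake genes had 0 of 19 called either way, with a median of 0.11.

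Raised promoters started low. Their median level was 33.7% of the median promoter in CC_l and 94.9% in HH, whereas the lowered ones went from 163% to 87.5%. These levels come from the libraries that chose the promoters, so the contrast was partly set by the selection. Capg, an actin-capping protein of macrophages, rose from 23.3% and 26.1% to 130% and 112% (log2 difference 2.29, SE 0.26, adjusted p = 0.000372 by limma). The smallest adjusted p was that of Olfr56, from 20.7% and 36% to 251% and 190% (3.00, SE 0.26, adjusted p = 1.3e-05 by limma), but its window overlaps that of Ifi47, an interferon-inducible GTPase, so these cannot be told apart. Ggta1, Prkch, Lctl, Tmem204, Serpinf1 and Tm6sf1 followed, at log2 differences of 1.80 to 2.90. Of the 175 measured promoters in the immune lists 21 were higher and 3 lower (Cfd, Csf1 and Il17rb), and the median log2 difference was 0.44. Tyrobp, the adaptor of Trem2, rose from 4.6% and 7.21% to 58.0% and 37.8% (3.02, SE 0.63, adjusted p = 0.0173 by limma). Haematopoietic signalling had 9 higher of 30, including Coro1a, Dock8 and the PI3-kinase subunits Pik3cg and Pik3cd, and haematopoietic transcription factors had 5 higher of 16 (Tal1, Lyl1, Gfi1, Irf5 and Irf8). Endothelial markers had 3 higher of 5, Pecam1, Esam and Egfl7. The summed marker levels given above include some of these promoters, such as Tyrobp and Pecam1, so they are no separate observation. The part of other cells in these rises was not tested.

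Matrix and remaining lists were mixed. Collagens had Col1a1 and Col6a3 higher and Col3a1 lower, from 66.4% and 67.7% to 18.3% and 19.9%, of 17 measured. Histone genes, whose promoters lie close together in clusters, had 5 higher and 1 lower of 61. Respiratory chain genes had 0 called of 89 and a median of -0.06. Gpam, an acyltransferase of triglyceride synthesis (log2 difference -0.34), and Icam1, an adhesion molecule (1.36), were not called, at adjusted p = 0.472 and 0.127 by limma. Acacb, an acetyl-CoA carboxylase (-0.86), was just outside, at adjusted p = 0.0501 by limma.

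**Figure D3:**
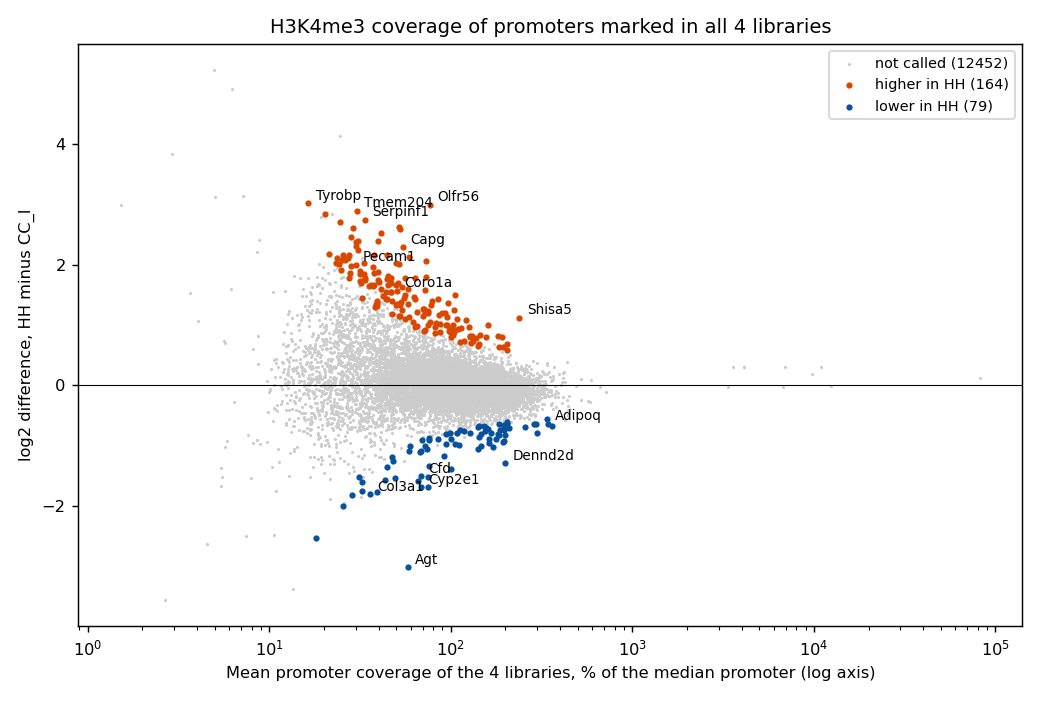
Log2 difference in H3K4me3 coverage, HH minus CC_l (y axis), against the mean promoter coverage of the 4 libraries as a percentage of the median promoter (x axis, log), 1 point per promoter marked in all 4 libraries. The 164 higher promoters (orange) had a median level of 33.7% in CC_l, and the 79 lower ones (blue), Adipoq among them, a median of 163%. The CC_l libraries also entered the choice of these promoters.

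**Figure D4:**
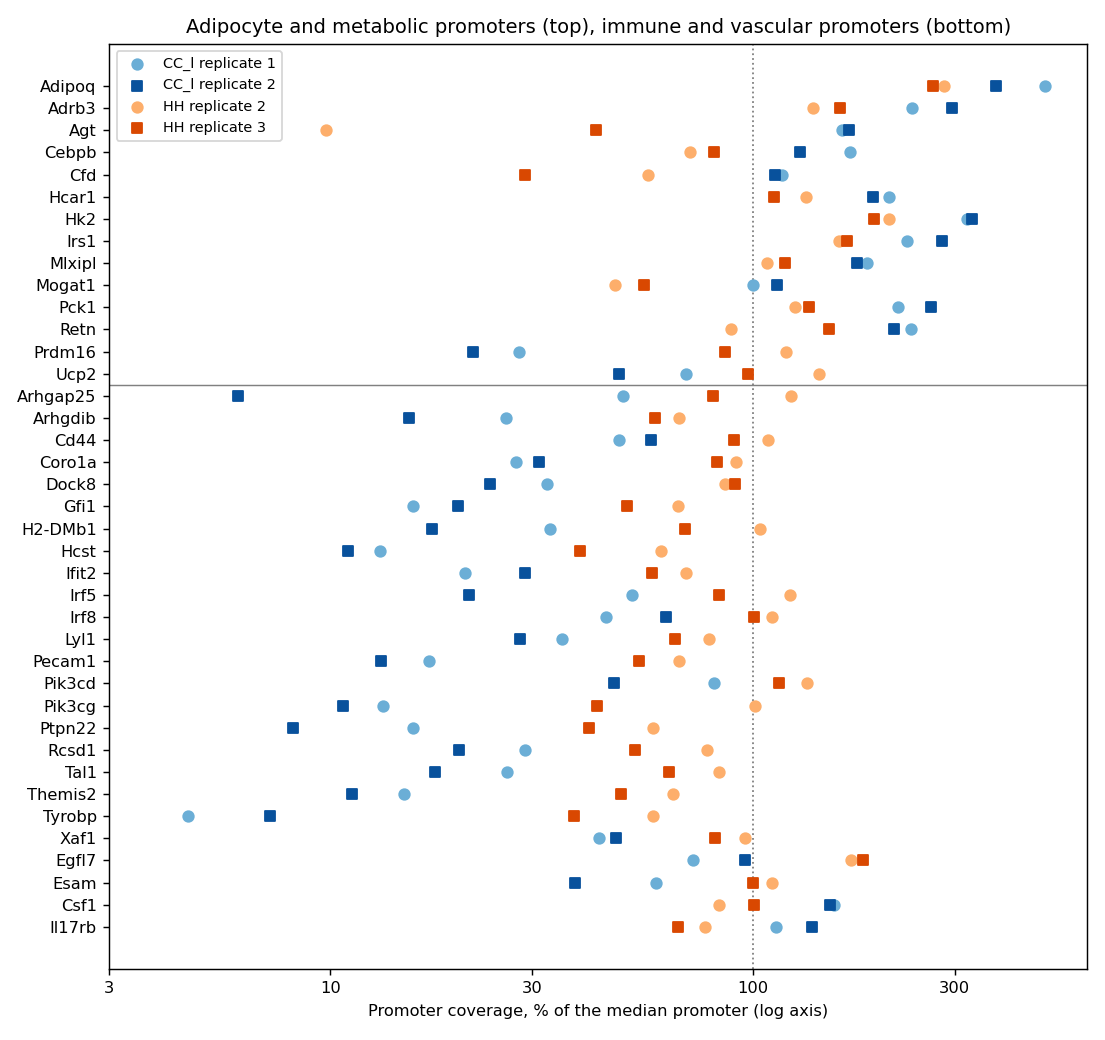
Promoter coverage in each of the 4 libraries (x axis, % of the median promoter, log axis) for every called promoter of the 8 adipocyte and metabolic lists above the line, and of the 18 immune lists and the endothelial markers below it, Cfd being shown once, above. The CC_l points (blue) lie right of the HH points (orange) for the 12 lower promoters above the line and for Csf1 and Il17rb at the bottom, and left of them for Prdm16, Ucp2 and the other promoters.

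Other marks from the same diets were read at the gained and lost promoters. The study ran several assays on 1 depot, so these libraries may come from the same depots, which would make them another readout of the same mice. HH replicate 1, in H3K27ac and H3K4me1, has no H3K4me3 library among the 4. H3K27ac, found at active promoters and enhancers, was present at 18.4% to 62.2% of gained promoters in the 3 HH libraries and at 4.86% and 17.7% in the CC_l libraries. At lost promoters it was present at 9.52% in each HH library and at 21% and 26.7% in CC_l. The share at gained minus that at lost promoters was 41.1 percentage points higher in HH (exact permutation test over libraries, two-sided p = 0.20, adjusted p = 0.23 over 7 tests, where 0.1 is the smallest p that 3 against 2 can give). H3K4me1 gave 34.5 points (exact permutation p = 0.10, adjusted p = 0.18). For H3K27me3 the difference was -9.66 points (exact permutation p = 0.33, adjusted p = 0.33, the smallest p possible with 2 against 2). In each mark every HH library lay on the same side of every CC_l library, yet these designs cannot pass 0.05. Without HH replicate 1 H3K27ac gave 29 points and H3K4me1 28.9. With equal numbers of peaks the differences were 15.8 points for H3K27ac, 19.9 for H3K4me1 and -4.47 for H3K27me3. Without CC_l replicate 2 in the selection H3K4me1 gave 20.2 points and H3K27me3 0.981.

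Promoters that gained both H3K4me3 and H3K27ac, in every HH and in no CC_l library, were 11 of 288 (3.82%), beside 0.448% of all promoters that gained H3K27ac. They were Fgd3, Rgs3, Csf1r, Pirb, Ly86, Cd52, Hpgds, Aatk, Lalba, Rtp3 and Sytl3. Of the lost promoters 6 of 105 also lost H3K27ac (5.71% beside 0.403% of all), namely Lrtm1, Nat8f3, Rnf183, Myl3, 1500015O10Rik and E030025P04Rik. H3K4me1, a mark of enhancers and promoter flanks, was gained with H3K4me3 at 17 of 288 promoters (5.90% beside 2.00% of all), among them Lrrc25, Glipr1 and Fgd3, and lost with it at 8 of 105 (7.62% beside 0.705% of all). No promoter gained H3K4me3 and lost H3K27ac or H3K4me1, or the reverse. H3K27me3 was lost at 4 of the gained promoters (1.39% beside 0.943% of all), Clec4a3, Abca4, Vsig2 and Gm10160, and gained at 2 (0.694% beside 1.05%), Apol8 and Gpr35. It was gained at 5 of the lost promoters (4.76% beside 1.05% of all), Aifm3, Hils1, Kcne1l, Nexmif and Rps6kl1.

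The gained and lost sets were then read in mice that did not enter the selection. The share of gained promoters marked was 71.9% to 81.3% in the 3 HHC and 20.8% and 29.2% in the 2 CCC libraries, and the share of lost promoters marked was 19% to 65.7% against 58.1% and 76.2%. In H the gained share was 33% and 38.2% in 2 libraries and 0% in H replicate 3, which had the fewest peaks, against 10.1% to 19.4% in C, and the lost share was at most 0.95% against 12.4% to 34.3%. In HC the gained share was 3.82%, 4.17% and 42.7% against 0% to 1.74% in CC_s, and the lost share, 0.952% to 12.4% against 0% to 9.52%, was not lower in HC. Over the 3 diet pairs the share at gained minus that at lost promoters was on average 40.8 points higher after high-fat diet (exact permutation within pairs, two-sided p = 0.00075, adjusted p = 0.0053 over 7 tests), and it was higher in every HHC than every CCC library and in every HC than every CC_s library. Without CC_l replicate 2 in the selection the average was 13.2 points (exact permutation p = 0.060). None of the 4000 arrangements can give a p below 0.00025. Single pairs gave 76.0 points for HHC against CCC, 31.5 for H against C and 15.1 for HC against CC_s (exact permutation p = 0.10, 0.20 and 0.10, adjusted p = 0.18, 0.23 and 0.18), and none of these can go below 0.1. Peak lists were also cut to equal numbers, 32225 peaks in HH, CC_l, HHC and CCC and 11249 in H, C, HC and CC_s. The average was then 28.1 points (exact permutation p = 0.0075), with 77.3 for HHC against CCC, 5.27 for H against C and 1.84 for HC against CC_s. The deeper cut in the last 2 pairs removes weaker peaks, and gained and lost promoters were weak as sets. These 2 values therefore cannot be set beside that of HHC against CCC. Without CC_l replicate 2 HHC against CCC gave 24.5 points and H against C -2.20, and without HC replicate 3 HC against CC_s gave 5.64.

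**Figure D5:**
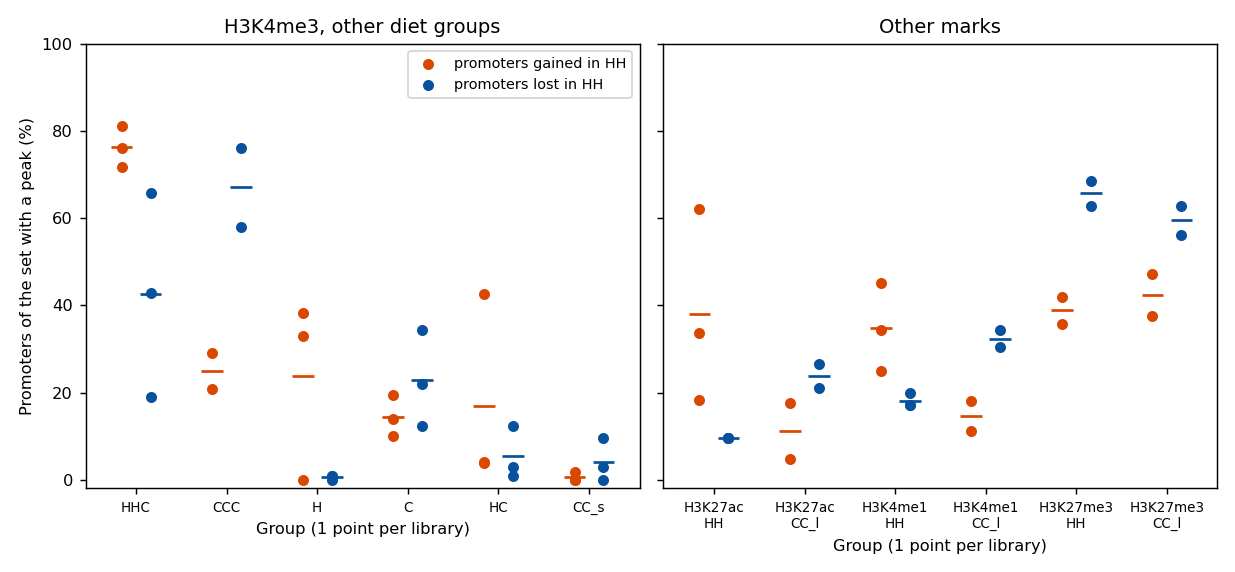
Percentage of the 288 gained (orange) and 105 lost (blue) promoters with a peak (y axis), 1 point per library and a bar at the group mean, for H3K4me3 in the other diet groups (left) and for other marks in HH and CC_l (right). Gained promoters are marked at 71.9% or more in HHC and at 29.2% or less in CCC, and H replicate 3 is at 0% for both sets.

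The level calls were followed into the same mice by a test chosen after these values had been seen. Of the called promoters 27 of 164 higher and 38 of 79 lower ones were marked in all 21 H3K4me3 libraries. The 27 do not include any of the 21 higher promoters of the immune lists or of the 3 higher endothelial markers. Those rises were therefore not followed here. Their mean log2 level, higher minus lower set, was 0.84 larger after high-fat diet than in controls over the 3 pairs (exact permutation within pairs, two-sided p = 0.00025, the smallest these splits can give, adjusted p = 0.0010 over 4 tests). It was 0.80 larger in HHC than CCC, 0.87 in H than C and 0.85 in HC than CC_s, with no overlap of groups within any pair (each exact permutation p = 0.10, adjusted p = 0.10, the smallest possible). S100a6, a calcium-binding protein, was 1.31, 1.32 and 1.05 higher on the log2 scale in HHC, H and HC than in their controls, and Slfn5 was 0.96, 1.16 and 1.11 higher. Hcar1 was -1.42, -1.59 and -0.73, Mlxipl -0.83, -0.54 and -0.69, and Gulp1, an engulfment adaptor, -0.80, -1.42 and -0.60. Cebpb was -0.96 in H but -0.05 in HHC and -0.03 in HC, and Hk2 was 0.08 in HHC, values given without a test for single genes.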

How the data were processed

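Adipocyte nuclei were profiled by CUT&Tag for 4 histone marks, and the 4 H3K4me3 libraries of HH and CC_l carried the comparison. The deposited files are peak lists made by the authors for each library, with total signal (summed read coverage) and highest signal per peak. According to the study's methods and the submitters' processing notes, reads were trimmed (Trim Galore 0.6.6) and aligned to mm10 (Bowtie2 2.4.4), coverage was made with SAMtools 1.13 and bedtools 2.30, and SEACR 1.3 (stringent, threshold 0.01) kept the strongest 1% of regions, so depth and weaker signal are unknown.

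Promoters came from 41438 start sites of GENCODE vM21 basic annotation. Coverage was summed over each window, scaled by median log ratios, and tested with limma 3.58.1 (R 4.3.3, trended, Benjamini-Hochberg) for promoters with a peak in all 4 libraries, without a pseudocount. Shares were tested with exact permutations over libraries. Other steps used Python 3.11.15, numpy 2.4.6, pandas 2.3.3 and scipy 1.17.1, and the limma and permutation steps were tested on simulated data. Text names the 12 strongest gained and lost promoters, the 8 level calls per direction with the smallest p, called list members and other genes chosen after their values were seen. A few genes that these rules name are not reported here. The members and lists were chosen with earlier results of these data known. Replicates are biological replicates per the labels. Alternatives were other windows, overlaps, peak numbers, normalizations, promoter sets, groupings and leaving out each library.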

Additional observations from a re-analysis of the deposited data

Results flagged for a closer look

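A total of 7 promoters were called in opposite directions in HH against CC_l and in another diet pair, and the difference between the pairs was not tested. Hoxb9, a homeobox gene, H2-Q2 and Gm3139 lost H3K4me3 in HH, yet 3 of 3 HHC libraries and no CCC library marked them. S100a14 and Chst13 gained it in HH, yet 0 of 3 HHC libraries and both CCC libraries marked them. Fgf7, a growth factor of mesenchymal cells, and Gm20721 gained it in HH, yet 0 of 3 H libraries and all 3 C libraries marked them. H replicate 3, with peaks at 41.7% of promoters, had the fewest of the H and C libraries, and in all 373 promoters were lost and 1 was gained in H against C.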

How the results depend on the processing

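Grouping by the treatment field made CC_l replicate 2 and CCC replicate 3 the HH group, and CC_l replicate 1 and HH replicate 3 the CC_l group. It gave 139 gained and 111 lost promoters, with 2 gained and 20 lost in the immune lists. Of these 0 were in the original sets, and none could be, because CC_l replicates 1 and 2 stood in opposite groups. The gained-minus-lost share difference then became -19.2 points over the other diet groups, -19.5 for HHC against CCC, -18.0 for H against C, -20.0 for HC against CC_s, -26.1 for H3K27ac, -27.0 for H3K4me1 and 7.29 for H3K27me3, and 0 promoters were higher and 0 lower in coverage. Under that grouping the log2 difference was -0.93 for Olfr56, -1.08 for Capg, -1.66 for Ggta1, -0.29 for Prkch, -0.73 for Lctl, -1.77 for Tmem204, -1.32 for Serpinf1, -0.38 for Tm6sf1, 0.60 for Dennd2d, 0.62 for Agt, 0.65 for Cyp2e1, 0.58 for Alkal2, 0.95 for Hoxa6, 0.89 for Kcnn2 and 0.35 for Smim1. With groups from the titles, the other windows, overlaps and peak numbers gave 51 to 67 gained and 0 lost promoters in the immune lists. Keeping only the stronger 50% of each peak list gave 316 gained and 64 lost promoters, of which 45 and 2 were in the original sets, and asking for peaks at least 2 times the smallest listed, a rule chosen after seeing the data, left 64 and 4. Leaving out each library gave 440 to 635 gained and 182 to 581 lost promoters. With fewer libraries the rule asks for less, so these counts could not fall and the rise was set in advance. Without CC_l replicate 2 the share difference over the other diet groups was 13.2 points (exact permutation p = 0.0595), for H against C it was -2.20 and for H3K27me3 0.981. Over the libraries left out, these ranged from 13.2 to 45.2, from -2.20 to 43 and from -11.2 to 0.981 points, and the others from 24.5 to 89.2 (HHC against CCC), from 5.64 to 20.1 (HC against CC_s), from 29 to 50.9 (H3K27ac) and from 20.2 to 40.4 (H3K4me1). Equal numbers of peaks gave 28.1 points over the other diet groups, 5.27 for H against C and 1.84 for HC against CC_s. For this the H3K4me3 lists of H, C, HC and CC_s were cut to 11249 peaks, and those of HH, CC_l, HHC and CCC to 32225. Other marks gave 15.8 for H3K27ac, 19.9 for H3K4me1 and -4.47 for H3K27me3. Promoters higher and lower in coverage numbered 91 and 50 under quantile normalization, 33 and 17 with the highest coverage, 45 and 10 with windows of 1000 bp, 9 and 1 with windows of 500 bp, 3 and 0 in the fit on all 9 libraries of the cohort, and 0 and 0 among promoters marked in at least 2 of 4 libraries, where 1609 were below an unadjusted p of 0.05. Leaving out each library gave 36 to 341 higher and 53 to 125 lower, where the lone library left in a group was assumed to vary like the other group. Causes of these changes were not tested. No paired analysis was possible because the groups share only replicate number 2.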
